A study of Danio rerio with 12 samples.

Results

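Proteasome genes were followed in zebrafish microglia of 4 genotypes by taking every gene ID of the deposited count table whose symbol, in any letter case, begins with psma, psmb, psmc, psmd, psme, psmf or psmg. The rule found 59 IDs among 35117 gene IDs, 27000 of which carry a symbol, and it used no measured value. The 59 IDs comprised 10 alpha and 7 standard beta subunit genes of the 20S core, 7 immunoproteasome and related beta genes, 7 ATPase and 14 non-ATPase genes of the 19S cap, 6 genes of activators and regulators, 3 chaperones of 20S assembly and 3 chaperones of 19S assembly. The remaining 2, PSMC3IP and PSME3IP1, share the prefix but encode no proteasome subunit. The deposited counts carry Ensembl IDs without symbols, and the symbols were joined to them from a separate list of gene names. That list capitalises many of them as in human, and each stands for the zebrafish gene whose ID is given.

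The proteasome is the main ATP-dependent protease for proteins tagged with ubiquitin. Its 20S core is a barrel of stacked rings, in which alpha subunits form the gated ends and the beta subunits PSMB5, PSMB6 and PSMB7 cut peptide bonds, while the 19S cap binds ubiquitin, removes it and unfolds the substrate with a ring of ATPases. In mammals, immune cells and cells exposed to interferon exchange the cutting subunits for PSMB8, PSMB9 and PSMB10, giving the immunoproteasome, whose products feed presentation on MHC class I.

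The tubes were of DMut, mafba mutants, mafbb mutants and siblings, with 3 tubes per group, all from brains at 3 days post fertilisation (dpf). Under a microscope 3 DsRed-positive cells were hand-picked into each tube, and their poly(A) RNA was amplified by Smart-seq2, a full-length cDNA method that captures RNA with oligo-dT. All fish carried Tg(mpeg1:DsRedx), a reporter under the mpeg1 promoter, which is active in macrophages in general and not in microglia alone. The label DMut has no definition in the labels and is taken to mean that both genes are mutant. No source used here gives the alleles, or which of them the siblings carry. About 10 embryos were dissected for a preparation, and whether the 3 tubes of a group share a preparation is not given either. The p-values therefore measure only the spread between tubes, which may be technical. With 3 cells in a tube, fewer cells expressing a gene and less RNA per cell cannot be told apart.

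Gene counts, without the ERCC spike-ins, were 9982659 to 17609231 per tube. Genes with a count numbered 7808 to 9297 in DMut tubes, 7038 to 10521 in mafba tubes, 5100 to 6141 in mafbb tubes and 7077 to 7665 in tubes of siblings. Spike-ins took 0.662% to 0.798% of counts in mafbb tubes and 0.0946% to 0.452% in the other tubes. mafbb replicate 3 stood apart, with the fewest genes detected and 180593 counts in proteasome genes, against 39801 to 89822 in the other 11 tubes. All 25 IDs matched to a list of macrophage and microglia markers had a count, and together they took 0.837% to 0.919% of gene counts in DMut tubes, against 4.44% to 6.597% in tubes of siblings. The markers did not move together. apoeb had 346676 to 449714 counts in siblings and 0 in all DMut tubes, and ccl34b.1 had 94973 to 134987 against 207 to 611. LCP1 had 13639 to 25737 counts in siblings and 28134 to 41015 in DMut tubes, and ctss2.1 had 8642 to 13739 against 26981 to 34266. Neutrophil markers (5 of 7 with a count) took 0.0303% to 0.0620% in DMut tubes, 0% to 0.00499% in mafba tubes and nothing in mafbb tubes or in siblings. Those at 0 were MMP9 and the epx ID ENSDARG00000012535. The other ID of that name, EPX (ENSDARG00000019521), had 5198, 1803 and 1725 counts in DMut tubes and none elsewhere. mmp25b had 1622, 1220 and 1834 counts in DMut tubes and 0, 72 and 767 in mafba tubes. The rest of the list had few counts in DMut replicates 1 to 3 and none elsewhere: npsn 328, 0 and 67, lyz 16, 0 and 0, and mmp13a 0, 0 and 94. All 4 erythroid markers were at 0 in every tube. Endothelium markers (3 of 6 with a count) took nothing in DMut tubes and at most 0.0165% in the other tubes. Neuron markers (4 of 5 with a count) took nothing in siblings and at most 0.0101% in the other tubes. Of 5 radial glia markers GFAP, her4.1 and S100B were at 0, and the list took 0.00804% to 0.0163% in DMut tubes, against 0.354% to 0.936% in siblings. All of its counts came from 2 GLUL IDs, which went opposite ways. ENSDARG00000099776 had 37838 to 121663 counts in siblings and 0, 498 and 0 in DMut tubes. ENSDARG00000100003 had 0, 38 and 626 counts in siblings and 1733, 1133 and 895 in DMut tubes. Epidermis and metaphocyte markers (4 of 6 with a count, krt5 and cldne at 0) took 0.00447% to 0.00717% in DMut tubes and at most 9.3e-05% in the other tubes. Proliferation markers (15 of 16 with a count) took 0.0822% to 0.136% in DMut tubes, 0.0807% to 0.362% in mafba tubes, 0.00747% to 0.0812% in mafbb tubes and 0.00622% to 0.0771% in siblings. The ID at 0 was ENSDARG00000033231, named MCM6, while the other MCM6 ID, ENSDARG00000057683, was counted. Within mafba the proliferation list split by tube. CDK1, TOP2A, CCNB1 and CCNA2 had 13550, 5910, 3430 and 3298 counts in replicate 2 and at most 4 each in replicates 1 and 3. MCM2 and MCM3 had 461 and 562 counts in replicate 2, against 3193 to 5236 in replicates 1 and 3. MCM4 and the counted MCM6 ID were also lowest in replicate 2. PCNA, MCM5 and MCM7 were instead lowest in replicate 1, at 1148, 0 and 1 counts, against 758 to 9821 in replicates 2 and 3. The part of these differences between tubes in the results below was not tested.

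Standard proteasome genes were detected broadly. Of the 59 IDs, 54 had a count in at least 1 tube and 39 had a count in all 12. The 39 included all 7 standard beta genes, all 7 ATPase genes, 9 of 10 alpha genes and 12 of 14 non-ATPase genes of the cap. They included 3 of 6 activators and regulators, 1 of 3 chaperones of 20S assembly, none of the 3 chaperones of 19S assembly and none of the 7 immunoproteasome and related genes. Each tube held counts for 46 to 52 of the 59.

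The summed counts of the 59 IDs made up 0.459%, 0.401% and 0.404% of gene counts in DMut replicates 1 to 3. They made up 0.510%, 0.514% and 0.455% in mafba replicates 1 to 3, and 0.542%, 0.586% and 1.12% in mafbb replicates 1 to 3. In replicates 1 to 3 of the siblings the shares were 0.549%, 0.372% and 0.539%. DMut and mafba tubes lay inside the range of the siblings, and the tube that exceeded all others was mafbb replicate 3. Counting error was small beside this spread, since the widest 95% Wilson interval of a tube's share spanned 0.0103 percentage points. PCR reads without molecular identifiers are not independent molecules, so intervals and count limits given here cover counting error only.

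By role, the alpha genes took 0.108% ± 0.0109 of gene counts in DMut, 0.115% ± 0.00500 in mafba, 0.228% ± 0.137 in mafbb and 0.108% ± 0.0127 in siblings (SD, n = 3 each). The standard beta genes took 0.0986% ± 0.0173 in DMut, 0.118% ± 0.0128 in mafba, 0.174% ± 0.0672 in mafbb and 0.130% ± 0.0148 in siblings. For the ATPases the shares were 0.0862% ± 0.0122 in DMut, 0.0945% ± 0.00931 in mafba, 0.132% ± 0.0812 in mafbb and 0.0853% ± 0.0130 in siblings. The standard beta genes took 0.0864% to 0.118% in DMut tubes, against 0.115% to 0.144% in siblings, so the groups overlapped. The alpha genes took 0.111%, 0.195% and 0.379% in mafbb replicates 1 to 3. The non-ATPase genes of the cap took 0.0973% ± 0.0168 in DMut, 0.114% ± 0.0208 in mafba, 0.161% ± 0.0298 in mafbb and 0.124% ± 0.0477 in siblings. Activators and regulators took 0.0191% ± 0.00504 in DMut, 0.0221% ± 0.0165 in mafba, 0.0290% ± 0.0185 in mafbb and 0.0210% ± 0.00699 in siblings. The chaperones of 20S assembly took 0.00578% ± 0.00132 in DMut, 0.0153% ± 0.00531 in mafba, 0.00943% ± 0.0100 in mafbb and 0.00442% ± 0.00299 in siblings, and every mafba tube lay above every tube of the siblings. Those of 19S assembly took 0.00292% ± 0.000903 in DMut, 0.00786% ± 0.00439 in mafba, 0.0100% ± 0.00681 in mafbb and 0.00827% ± 0.00344 in siblings, and every DMut tube lay below every tube of the siblings. As shares of gene counts, the tubes of every other role and mutant group overlapped those of the siblings. On TMM-scaled library sizes the same held except for the standard beta genes in DMut. Of single genes tested, on TMM-scaled sizes, 5.61% lay above siblings in all mafba tubes and 7.33% below siblings in all DMut tubes. No such share was computed for sums of other gene sets, and these sums by role were not tested.

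**Figure D1:**
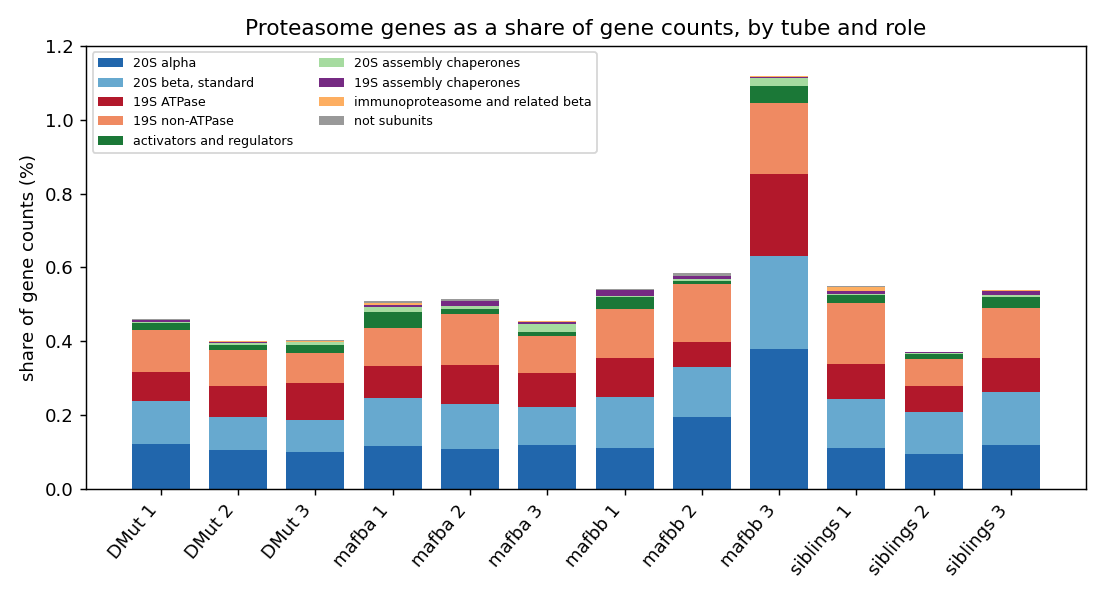
Summed counts of proteasome genes as a percentage of all gene counts (vertical axis) in each of the 12 tubes, stacked by role. Tubes of DMut, mafba and siblings reach 0.372% to 0.549%, mafbb replicates 1 and 2 reach 0.542% and 0.586%, and mafbb replicate 3 reaches 1.12%.

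Differences between genotypes were tested gene by gene with edgeR's quasi-likelihood test over 9519 genes, 52 of them proteasome genes, with Benjamini-Hochberg adjustment and a call at an adjusted p under 0.05. Levels below are CPM, the counts of a gene per 1e6 counts, on TMM-scaled library sizes. The 7 IDs that the test left out were the 5 with no count in any tube (PSMB9, PSMB11, psmb11b, psmb13a and the PSME4 ID ENSDARG00000087911) and the sparsely counted PSMB8 and psmb12. No proteasome gene was called between DMut and siblings, where 0.714% of all genes tested were called. An unadjusted p under 0.05 was found there for 1 of the 52 (1.92%) and for 12.5% of all genes. None was called between mafba and siblings, where 0% of genes were called, and 2 of the 52 (3.85%) had an unadjusted p under 0.05 against 7.82% of all genes. None was called between mafbb and siblings, where 0.0735% were called, and 5 of the 52 (9.62%) had such a p against 18.6% of all genes. Between DMut and mafba none was called (0.399% of all genes), with such a p for 1 of the 52 and 8.03% of all genes. Between DMut and mafbb none was called (0.725% of all genes), with such a p for 5 of the 52 and 20.6% of all genes. The interaction asks on the log2 scale whether DMut departed from the summed differences of mafba and mafbb from siblings. It called none of the 52 and 0.21% of all genes, with an unadjusted p under 0.05 for 3 of the 52 (5.77%) and 13% of all genes. The test of any difference among the 4 genotypes called none of the 52 and 0.84% of all genes, with such a p for 1 of the 52 and 11.9% of all genes. In all 7 tests the share of proteasome genes with an unadjusted p under 0.05 was below the share over all genes. The 7 tests came from 1 model of the same 12 tubes, so they are not independent of each other. Proteasome genes also differed in level from all genes. Of the 52, 38 averaged at least 45.5 CPM over the 12 tubes, as did 2380 of the 9519 genes. Whether the shares differ from those of genes of similar level was not tested. Across the 7 tests the smallest adjusted p of a proteasome gene was 0.240. The limma voom model called none of the 52 either. DESeq2 gave an adjusted p to 51 proteasome genes. It called 1 between DMut and siblings (beside 878 of 9080 genes) and 2 between mafba and siblings (584 of 9527). It called 2 between mafbb and siblings (1665 of 9080) and 1 between DMut and mafba (503 of 8979). Between DMut and mafbb it called 2 (1760 of 9260), for the interaction 2 (1390 of 9527) and for any difference 0 (0 of 12160). The proteasome genes DESeq2 called were PSME3IP1, psma6l, PSMB10 and PSMF1, each with 0 counts in most tubes of a genotype.

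In log2 fold change, 24 of the 52 lay above 0 and 28 below in DMut over siblings, with a median of -0.11 against 0.07 for all genes tested. In mafba over siblings, 29 lay above and 23 below, with a median of 0.04 against 0.11 for all genes. In mafbb over siblings, 32 lay above and 20 below, with a median of 0.42 against -0.20 for all genes, and without mafbb replicate 3 the median was -0.13 against -0.33. The median in DMut over mafba was -0.27 against -0.07 for all genes. In DMut over mafbb it was -0.41 against 0.37, and without mafbb replicate 3 it was 0.07 against 0.52. Scaling to the spike-ins in place of TMM moved the median of all genes to 0.47 in DMut over siblings and to -1.58 in mafbb over siblings, and the medians of the 52 to 0.27 and -1.05. With library size alone the median in mafba over siblings was -0.01. Single tubes changed the sign of the median as well. It was 0.02 in DMut over siblings without siblings replicate 3, and in mafba over siblings -0.02 without mafba replicate 2 and -0.04 without siblings replicate 2. The sign of each median over siblings thus depended both on the scaling and on 1 tube.

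**Figure D2:**
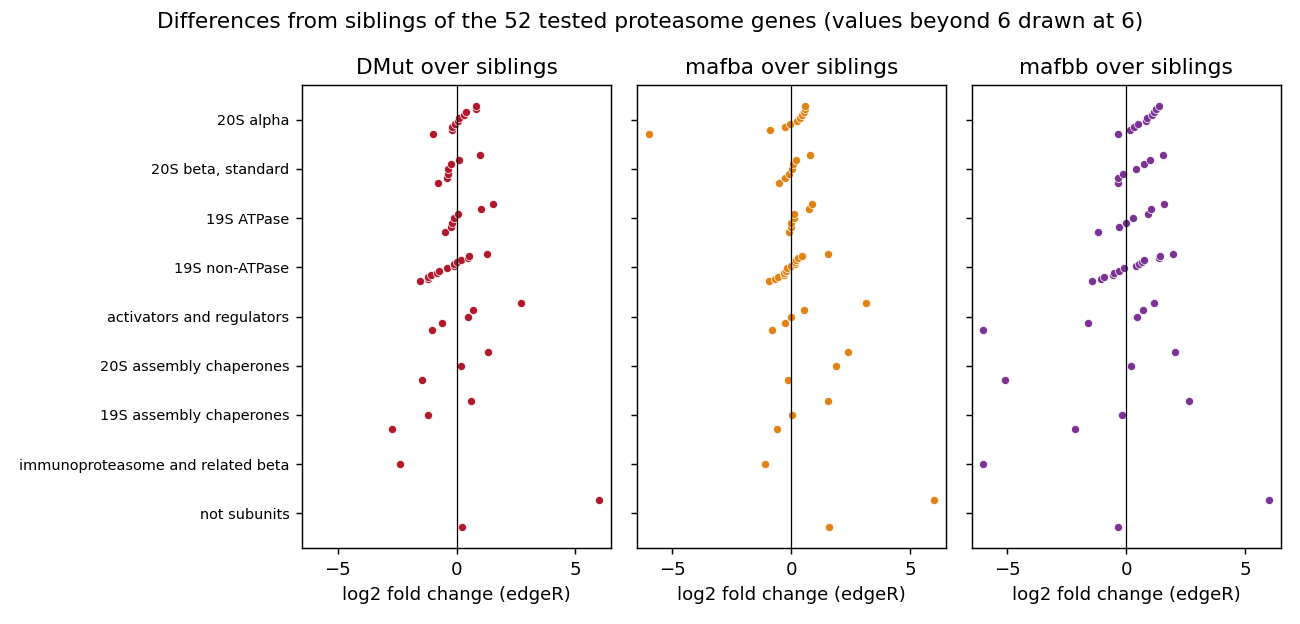
Log2 fold change over siblings (horizontal axis, edgeR) of the 52 tested proteasome genes by role, with 1 point per gene, for DMut, mafba and mafbb. Core and cap genes cluster around 0 with values between -1.53 and 1.56 in DMut, and fitted values beyond 6 or -6, of genes with 0 counts in a whole genotype or nearly so, are drawn at 6 or -6.

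Some genes separated from siblings in all 3 tubes without passing the test. Every DMut tube lay above every tube of the siblings for 5 of the 52 (PSMF1, PSMB5, psmc1b, PSMD8 and PSMA2), where 9.86% of all genes tested did so. Every DMut tube lay below for 5 (PSMD12, psmd4b, PSMC6, PSMD4 and the PSMD2 ID ENSDARG00000099653), where 7.33% of all genes did so. Every mafba tube lay above siblings for 4 (PSMC6, PSMD8, PSMG2 and PSMG1; 5.61% of all genes) and below for 1 (the same PSMD2 ID; 3.7% of all genes). Every mafbb tube lay above siblings for 7 (PSMB5, PSMA8, PSME3IP1, PSMD4, PSMB2, PSMD3 and PSMA5; 2.52% of all genes) and below for 2 (PSMB10 and PSMC1; 9.05% of all genes). For DMut the share of proteasome genes in either direction was close to the share over all genes. For mafbb it exceeded the share over all genes above siblings and fell short of it below siblings. Here too the shares over all genes were not matched for level. These separations were read on the TMM scale. In mafbb over siblings 32 of the 52 had a log2 fold change above 0 on that scale, but 6 with spike-in scaling. The genes so named were picked for this separation, so their levels below are a description.

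Among the alpha subunit genes, 6 of 10 lay above 0 in DMut over siblings, with log2 fold changes between -0.99 and 0.84. In mafbb over siblings 9 of 10 lay above 0, between -0.34 and 1.39, and none passed the test. PSMA3 (ENSDARG00000086618), a subunit of the alpha ring, had 218.6, 151.6 and 176.4 CPM in DMut tubes, 223.3, 207.9 and 167.5 CPM in mafba tubes, 154.4, 528.8 and 634.6 CPM in mafbb tubes, and 216.7, 153.2 and 256.2 CPM in tubes of siblings. mafbb replicates 2 and 3 were the high tubes and the other 10 overlapped. PSMA8 (ENSDARG00000010965), an alpha gene that RefSeq also lists as psma7, had 217.8, 315.6 and 793.5 CPM in mafbb tubes, against 173.0, 149.9 and 184.7 CPM in siblings. All mafbb tubes lay above siblings, with a log2 fold change of 1.39 ± 0.61 (SE, adjusted p = 0.263), but on the spike-in scale that value was -0.10. In DMut tubes PSMA8 had 114.2, 164.4 and 271.6 CPM and in mafba tubes 101.1, 207.5 and 345.1 CPM, which overlapped siblings.

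psma6l (ENSDARG00000043899), a paralogue of the alpha ring gene PSMA6, was the alpha gene with gaps. It had 32.5, 0 and 46.1 CPM in DMut tubes, 0 CPM in all 3 mafba tubes, 0, 35.3 and 66.5 CPM in mafbb tubes, and 67.7, 14.2 and 0 CPM in tubes of siblings. Tubes at 0 occurred in every genotype, and mafba was the group in which all were at 0. A count of 0 in all 3 mafba tubes allows a level of up to 0.0672 CPM (3 counts over the group), so the mean of 27.3 ± 35.7 CPM in siblings (SD, n = 3) puts mafba at least 406-fold lower. With 1 tube of the siblings left out, this bound was 106-fold without replicate 1 and 609-fold without replicate 3. The adjusted p of this difference was 0.608 with edgeR and 0.0258 with DESeq2. psma2a, a paralogue of PSMA2, averaged 49.1 ± 23.4 CPM in mafba and 90.6 ± 72.6 CPM in siblings, and the tubes overlapped.

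The standard beta genes were counted in every tube. PSMB5 (ENSDARG00000075445), the subunit with chymotrypsin-like activity, had 92.7, 94.8 and 127.1 CPM in DMut tubes, 34.7, 92.3 and 149.8 CPM in mafba tubes, 88.2, 221.3 and 165.3 CPM in mafbb tubes, and 46.2, 77.6 and 36.4 CPM in siblings. DMut and mafbb tubes lay above all tubes of siblings, and mafba tubes overlapped them. The log2 fold changes over siblings were 0.97 ± 1.03 in DMut, 0.79 ± 1.02 in mafba and 1.57 ± 1.04 in mafbb (SE), and the adjusted p was 1, 1 and 0.468 in that order. The other cutting subunits did not share the separation. PSMB6 (ENSDARG00000002240), with caspase-like activity, had 36.7, 197.3 and 128.5 CPM in DMut tubes, 174.4, 169.2 and 132.6 CPM in mafba tubes, 168.7, 93.5 and 163.1 CPM in mafbb tubes, and 122.0, 118.1 and 218.4 CPM in siblings. PSMB7 (ENSDARG00000037962), with trypsin-like activity, had 224.9, 218.1 and 168.4 CPM in DMut tubes, 280.9, 341.7 and 275.3 CPM in mafba tubes, 107.6, 188.0 and 332.1 CPM in mafbb tubes, and 192.2, 252.3 and 345.1 CPM in siblings. For PSMB6 and PSMB7 the 3 mutant groups overlapped siblings. PSMB4, a non-catalytic beta subunit, averaged 165 ± 59.2 CPM in DMut, 200 ± 70.8 CPM in mafba, 381 ± 185 CPM in mafbb and 284 ± 68.1 CPM in siblings (SD, n = 3 each), with a log2 fold change of -0.79 ± 0.57 in DMut over siblings (SE, adjusted p = 0.764).

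The immunoproteasome genes had few counts or none in these libraries. PSMB10 (ENSDARG00000043781), the inducible counterpart of PSMB7, had 0, 17.4 and 0 CPM in DMut tubes, 27.6, 0 and 14.5 CPM in mafba tubes, 0 CPM in all 3 mafbb tubes, and 75.1, 0.202 and 15.9 CPM in tubes of siblings. It was counted in 6 of 12 tubes and never in mafbb, where 0 counts allow up to 0.0698 CPM. Against the mean of 30.4 ± 39.5 CPM in siblings (SD, n = 3) this puts mafbb at least 436-fold lower, with an adjusted p of 0.263 by edgeR and 3.11e-11 by DESeq2. The mean of the siblings rested mostly on replicate 1, which held 1118 of the PSMB10 counts beside 2 and 207 in replicates 2 and 3. Without replicate 1 the bound was 116-fold. PSMB8, the inducible counterpart of PSMB5, had 76 counts in DMut replicate 3, 413 counts in mafbb replicate 3 and none in the other 10 tubes. PSMB9, the inducible counterpart of PSMB6, had no count in any tube, which allows up to 0.0977 CPM in DMut, 0.0672 in mafba, 0.0698 in mafbb and 0.0794 in siblings. Among the related beta genes, psmb12 had 114 counts in mafba replicate 1 and none elsewhere, while PSMB11, psmb11b and psmb13a had no count in any tube. PSMB11 encodes the thymus-specific beta subunit in mammals. In the RefSeq annotation (GRCz12tu) psmb8a, psmb9a, psmb12 and psmb13a lie within 5 genes of each other on 1 chromosome, and the sources do not settle which zebrafish paralogues the IDs named PSMB8 and PSMB9 are.

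**Figure D3:**
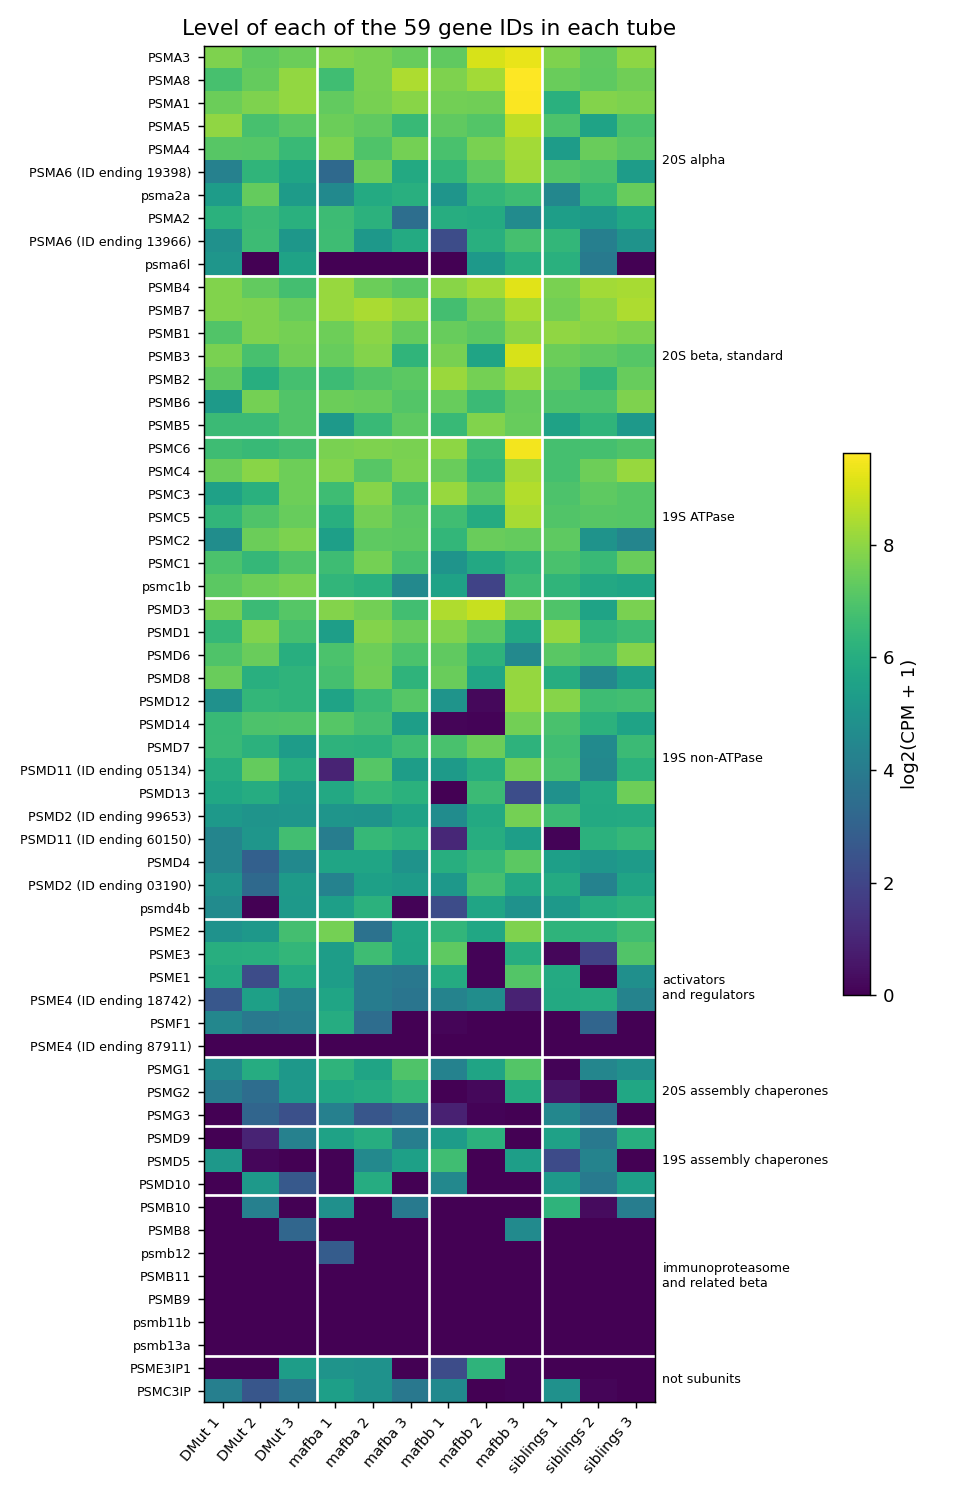
Level of each of the 59 gene IDs in each of the 12 tubes, as log2(CPM + 1), ordered by role and, within a role, by mean level. The core and cap rows are filled in nearly all tubes, the 7 immunoproteasome and related rows are almost empty, and mafbb replicate 3 is the brightest column in the alpha rows.

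In the ATPase ring of the cap, the paralogues PSMC1 and psmc1b were high in different tubes, and neither passed the test. psmc1b (ENSDARG00000043561) had 146.8, 181.8 and 208.8 CPM in DMut tubes, 79.1, 69.1 and 22.3 CPM in mafba tubes, 45.9, 2.88 and 98.1 CPM in mafbb tubes, and 77.1, 55.7 and 50.01 CPM in siblings. Every DMut tube lay above all 9 tubes of the other groups. PSMC1 (ENSDARG00000030537) had 118.5, 84.8 and 124.7 CPM in DMut tubes, 99.5, 194.1 and 113.6 CPM in mafba tubes, 30.5, 55.3 and 80.0 CPM in mafbb tubes, and 114.5, 90.3 and 170.3 CPM in siblings. Its mafbb tubes lay below all other tubes. The share of psmc1b in the counts of the pair was 62.0% ± 6.46 in DMut, 29.0% ± 14.2 in mafba, 40.01% ± 30.5 in mafbb and 33.7% ± 9.57 in siblings (SD, n = 3 each), and the widest 95% Wilson interval of a tube was 6.32 percentage points. In mafbb replicates 1 to 3 the share was 60.0%, 4.95% and 55.1%, which overlapped the 55.3% to 68.2% of DMut tubes. The summed level of the pair was also higher in DMut tubes, at 265.3 to 333.5 CPM, than in siblings, at 146.0 to 220.3 CPM. The log2 fold change of psmc1b over siblings in DMut was 1.56 ± 1.24 (SE) with an adjusted p of 0.897. Reads that fit both paralogues may have been split or dropped in the authors' counting, so the shares of such pairs are uncertain.

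PSMC6 (ENSDARG00000037038), another ATPase of the ring, had the smallest p of the 52 for a difference among the 4 genotypes (0.0307, adjusted p = 0.404). It had 98.3, 89.1 and 105.6 CPM in DMut tubes, 206.2, 220.3 and 204.2 CPM in mafba tubes, 251.6, 100.5 and 711.9 CPM in mafbb tubes, and 109.6, 110.7 and 126.9 CPM in siblings. The mafba tubes were close together and above all DMut tubes and siblings, while mafbb replicate 2 lay among the DMut tubes. The log2 fold change over siblings was -0.25 ± 0.67 in DMut, 0.86 ± 0.68 in mafba and 1.62 ± 0.69 in mafbb (SE). For the interaction the adjusted p by edgeR was 0.259. The other ATPase genes (PSMC2, PSMC3, PSMC4 and PSMC5) overlapped siblings in all 3 mutant groups.

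**Figure D4:**
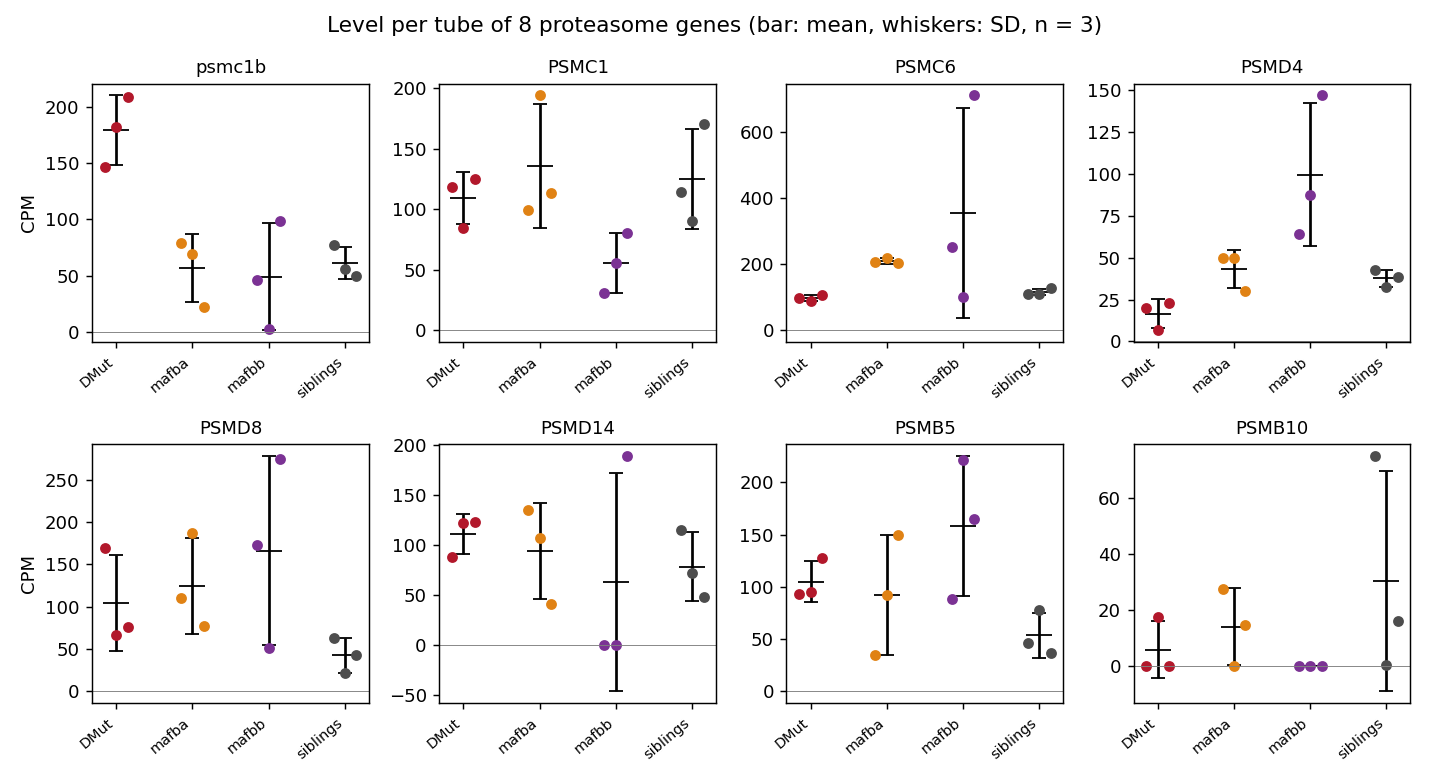
CPM per tube (vertical axis; points are tubes, the long tick is the mean, whiskers the SD, n = 3) of 8 proteasome genes in DMut, mafba, mafbb and siblings. psmc1b is higher in all 3 DMut tubes than in the other 9 tubes, PSMD14 is near 0 in mafbb replicates 1 and 2 but not in replicate 3, and PSMB10 is at 0 in all mafbb tubes.

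The non-ATPase genes of the cap scattered in both directions, with 5 of 14 above 0 in DMut over siblings, 6 of 14 in mafba over siblings and 7 of 14 in mafbb over siblings. PSMD4 (ENSDARG00000101295), a receptor for ubiquitin chains, had 20.001, 6.66 and 22.9 CPM in DMut tubes, 49.7, 49.9 and 30.1 CPM in mafba tubes, 64.3, 87.7 and 147.0 CPM in mafbb tubes, and 42.5, 32.4 and 38.2 CPM in siblings. All DMut tubes lay below and all mafbb tubes above siblings, with log2 fold changes of -1.19 ± 1.85 in DMut and 1.40 ± 1.86 in mafbb (SE, adjusted p = 1 and 0.988). Its paralogue psmd4b averaged 19.6 ± 17.8 CPM in DMut, 38.0 ± 36.1 CPM in mafba, 27.4 ± 22.8 CPM in mafbb and 56.4 ± 18.8 CPM in siblings (SD, n = 3 each). The summed level of the pair was 36.1 ± 26.4 CPM in DMut, 81.2 ± 46.7 CPM in mafba, 127 ± 54.8 CPM in mafbb and 94.1 ± 16.3 CPM in siblings. In all 3 DMut tubes, at 6.66 to 57.7 CPM, the pair lay below the siblings, at 78.3 to 110.8 CPM. The sum of the PSMD2 pair lay below siblings in DMut as well, at 39.2 to 69.4 against 74.8 to 151.7 CPM. The sum of PSMC1 and psmc1b, given above, lay above siblings in DMut. For the PSMA2, PSMA6 and PSMD11 pairs the DMut sums overlapped siblings. Of single genes tested, 9.86% lay above siblings in all DMut tubes and 7.33% below. No such share was computed for sums of other gene pairs, and these sums were not tested.

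PSMD8 (ENSDARG00000020454), a lid subunit, had 169.9, 66.9 and 76.0 CPM in DMut tubes, 110.4, 187.7 and 76.8 CPM in mafba tubes, 172.4, 51.4 and 275.0 CPM in mafbb tubes, and 62.5, 21.7 and 42.8 CPM in siblings. DMut and mafba tubes lay above siblings and mafbb replicate 2 lay within the range of the siblings. The log2 fold changes over siblings were 1.3 ± 1.0 in DMut, 1.56 ± 1.01 in mafba and 1.97 ± 1.02 in mafbb (SE), with adjusted p of 0.852, 0.913 and 0.268 in that order. PSMD3, a lid subunit as well, averaged 144 ± 53.9 CPM in DMut, 175 ± 64.0 CPM in mafba, 342 ± 119 CPM in mafbb and 127 ± 81.0 CPM in siblings, and its mafbb tubes lay above siblings (adjusted p = 0.263). PSMD12, also of the lid, had 28.3, 83.2 and 76.9 CPM in DMut tubes, against 235.8, 98.1 and 104.6 CPM in siblings, with a log2 fold change of -1.22 ± 1.23 (SE, adjusted p = 1).

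PSMD14 (ENSDARG00000063100), the enzyme of the lid that removes ubiquitin chains from substrates, was singled out after its values were seen. It had 88.5, 122.5 and 123.7 CPM in DMut tubes, 135.1, 107.1 and 41.3 CPM in mafba tubes, and 115.6, 72.4 and 47.7 CPM in siblings. In mafbb it had 1 count in replicate 1, 1 count in replicate 2 and 189.2 CPM, or 3300 counts, in replicate 3. With all 12 tubes the adjusted p by edgeR was 1 for mafbb against siblings. Without mafbb replicate 3 it was 0.0126 for mafbb against siblings, 0.00402 for DMut against mafbb, 0.0155 for the interaction and 0.0204 for any difference. The remaining 2 mafbb tubes then stand alone for their genotype, and the call for this gene rests on whether replicate 3 is counted.

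The assembly chaperones were counted unevenly. PSMG1 and PSMG2, which act as a pair in building the alpha ring, lay above siblings in all mafba tubes: PSMG1 (ENSDARG00000040620) had 76.5, 48.0 and 124.2 CPM in mafba tubes, against 0.0672, 20.4 and 27.2 CPM in siblings. PSMG2 (ENSDARG00000035987) had 52.1, 60.2 and 82.0 CPM in mafba tubes, against 0.470, 0.101 and 51.9 CPM in siblings. In DMut the averages were 40.1 ± 19.5 CPM for PSMG1 and 20.2 ± 13.6 CPM for PSMG2 (SD, n = 3), and DMut overlapped siblings for both. PSMG3, another chaperone of alpha ring assembly, averaged 3.92 ± 3.86 CPM in DMut, 9.80 ± 6.47 CPM in mafba, 0.302 ± 0.461 CPM in mafbb and 10.7 ± 10.55 CPM in siblings. PSMD9, a chaperone of the ATPase ring, had 0, 0.935 and 17.8 CPM in DMut tubes, against 44.3, 13.9 and 65.3 CPM in siblings, and PSMD10, another, averaged 13.4 ± 18.7 CPM in DMut and 31.1 ± 14.9 CPM in siblings. The DMut tubes overlapped siblings for PSMD9 and PSMD10 as well.

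Among the activators, PSME2 (ENSDARG00000033144), which with PSME1 forms the PA28 cap that interferon induces in mammals, averaged 56.5 ± 43.5 CPM in DMut, 85.4 ± 96.8 CPM in mafba, 117 ± 89.5 CPM in mafbb and 85.2 ± 14.9 CPM in siblings (SD, n = 3 each). PSME1 averaged 39.6 ± 31.1 CPM in DMut, 23.0 ± 14.7 CPM in mafba, 64.0 ± 66.4 CPM in mafbb and 28.1 ± 28.9 CPM in siblings. For both the mutant tubes overlapped siblings. PSMF1 (ENSDARG00000022652), the regulator PI31, had 21.2, 13.9 and 16.5 CPM in DMut tubes, 60.7, 9.97 and 0 CPM in mafba tubes, 0.0832, 0 and 0 CPM in mafbb tubes, and 0, 7.87 and 0 CPM in siblings. All DMut tubes lay above siblings and above all mafbb tubes. The adjusted p was 0.249 for DMut against mafbb.

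The 2 genes that are no subunits had many empty tubes. PSME3IP1 (ENSDARG00000041631), which binds the nuclear activator PSME3, had 0, 0 and 40.3 CPM in DMut tubes, 30.9, 29.4 and 0 CPM in mafba tubes, 3.66, 76.2 and 0.0573 CPM in mafbb tubes, and 0 CPM in all siblings. Against the limit of 0.0794 CPM in siblings, the means were at least 169-fold higher in DMut, 253-fold higher in mafba and 335-fold higher in mafbb, and the smallest adjusted p of these by edgeR was 0.263. In DMut 1 tube carried the whole level, and without that tube both groups were at 0. In mafbb the bound fell to 23.4-fold without replicate 2. PSMC3IP, a factor of meiotic recombination in mammals and yeast, averaged 11.3 ± 5.92 CPM in DMut, 28.3 ± 14.4 CPM in mafba, 7.57 ± 13.1 CPM in mafbb and 9.48 ± 16.3 CPM in siblings (SD, n = 3 each).

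Tubes of 1 genotype differed widely, and the median spread of proteasome genes lay below that of all genes of similar level from 50 CPM upward but not below it. For genes averaging 100 to 300 CPM over the 12 tubes, the median SD of log2(CPM + 1) within genotypes was 0.718 for the 23 proteasome genes and 0.859 for all 765 genes. All 23 had at least 2 counts in every tube, as did 83.4% of the 765. Between 50 and 100 CPM the median SD was 1.35 for 13 proteasome genes and 1.89 for all 1010 genes, and between 20 and 50 CPM it was 2.36 for 10 proteasome genes and 2.29 for all genes. These are descriptions of the levels in 12 tubes, with no test. mafbb replicate 3 was the highest of the 12 tubes for 23 of the 52 tested proteasome genes (44.2%), and for 11.6% of all genes tested.

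**Figure D5:**
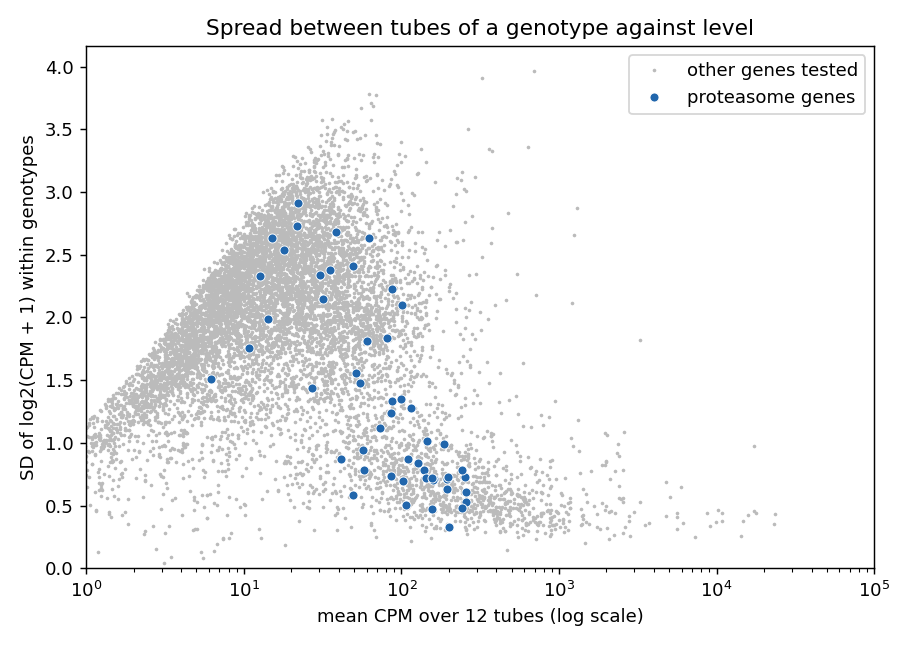
SD of log2(CPM + 1) between tubes of the same genotype (vertical axis) against mean CPM over 12 tubes (horizontal axis, log scale), with 1 point per gene tested; proteasome genes are blue and other genes grey. Proteasome genes from 100 to 300 CPM lie mostly in the lower part of the cloud, with a median of 0.718 against 0.859, and those under 50 CPM spread like the other genes.

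Genes around the proteasome were read from a list of 72 IDs, of which 58 were tested. Of 10 tested genes of proteasome assembly and gating (POMP, ADRM1, USP14 and others), 8 tested genes of the transcription factors that act on proteasome genes (NFE2L1, NFE2L2, the small Maf genes and their partners), 15 of ubiquitin and its charging, 7 of substrate extraction and shuttling and 9 of peptide transport and MHC class I, none passed edgeR's test in any comparison with all 12 tubes and TMM scaling. Under alternatives edgeR called maff, a small Maf gene, without mafbb replicate 2 (adjusted p = 0.0308 in DMut over mafbb and 0.0492 for the interaction). With spike-in scaling edgeR called VCP (adjusted p = 0.0239) and rps27a (0.0404) in DMut over mafbb. The unadjusted p was under 0.05 in DMut over siblings for 0, 0, 1, 1 and 0 of them in that order, in mafba over siblings for 0, 0, 0, 0 and 1, and in mafbb over siblings for 0, 0, 2, 0 and 1. Over all genes tested the shares with such a p were 12.5%, 7.82% and 18.6% in these 3 comparisons. limma voom called none of these genes. DESeq2 called b2m and ube2r2, each with 0 counts in all tubes of a genotype, beside its calls over all genes given above. The genes with such a p in DMut over siblings were rps27a, which encodes a ubiquitin fused to a ribosomal protein, and VCP, the ATPase that pulls ubiquitin-tagged proteins out of complexes. VCP had 340.6, 530.8 and 857.7 CPM in DMut tubes, against 271.1, 270.5 and 336.4 CPM in siblings (adjusted p = 0.393). rps27a had 816.3, 765.1 and 1020 CPM in DMut tubes, against 310.5, 736.2 and 440.6 CPM in siblings, with the same adjusted p. All 3 DMut tubes lay above siblings for both genes.

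Of 9 tested interferon response genes, 1 passed, irf2a in DMut against mafbb, where 0.725% of all genes did. irf2a (ENSDARG00000007387), a relative of the interferon regulatory factor IRF2, had 68.8, 1.52 and 31.7 CPM in DMut tubes, 69.4, 117.9 and 82.8 CPM in mafba tubes, 0 CPM in all 3 mafbb tubes, and 126.6, 110.2 and 50.7 CPM in siblings. The adjusted p was 0.0280 for DMut against mafbb and 0.0529 for mafbb against siblings. For mafbb against siblings it was under 0.05 in 7 of 24 alternative settings, among them spike-in scaling (0.00154), no filter (0.00711), limma voom (0.00704) and DESeq2 (1.42e-06), and ranged up to 0.212. The call for DMut against mafbb held in 16 of 24 alternative settings, over which the adjusted p ranged from 3.36e-05 to 0.299. It was lost, among others, without DMut replicate 1 (0.0779), mafbb replicate 2 (0.0523), mafba replicate 2 (0.0648), mafba replicate 3 (0.0528), siblings replicate 1 (0.0535) or siblings replicate 2 (0.0657). In mafbb, irf2a and PSMB10 were both at 0 in all tubes. PSMB10 was also at 0 in mafba replicate 2, where irf2a had 117.9 CPM. In DMut replicate 2 PSMB10 had 17.4 CPM, where irf2a had 1.52 CPM. A link between the 2 genes was not tested. irf9, which acts in the interferon response, was at 0 in all tubes of mafbb and siblings. It had 0.0784, 16.8 and 12.1 CPM in DMut tubes and 69.5, 53.2 and 28.1 CPM in mafba tubes. In mafba over siblings its adjusted p was 0.608 by edgeR, 0.0108 by limma voom and 0.00159 by DESeq2. DESeq2 also called irf9 in DMut over siblings (0.0216) and in DMut over mafbb (0.0102). Both alternative tools also called irf2b, another relative of IRF2, in mafbb over siblings, where it was lower (adjusted p = 0.0243 by limma voom and 6.24e-14 by DESeq2). irf2b was at 0 in all mafbb tubes and in DMut replicates 1 and 3. Both tools called ifngr1, a gene of the interferon gamma receptor, in DMut over mafbb, where it was higher (0.0414 by limma voom and 0.0314 by DESeq2). limma voom also called ifngr1 in DMut over siblings, where it was higher as well (0.0257). ifngr1 was at 0 in all tubes of mafbb and siblings. DESeq2 called mxa, which edgeR's filter left out, higher in mafbb over siblings (0.0333) and lower in DMut over mafbb (0.0202). mxa had 42.7, 77.0 and 0 CPM in mafbb tubes. Over all 9519 genes limma voom called 47 in mafba over siblings, 216 in mafbb over siblings, 423 in DMut over siblings and 480 in DMut over mafbb. DESeq2 called 584 of 9527, 1665 of 9080, 878 of 9080 and 1760 of 9260 genes in that order.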

How the data were processed

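The table the authors deposited holds raw whole-number counts, 1 value per gene and tube, with no normalization. The submitters' processing notes name the tools Trim Galore and STAR and the build GRCz11 (danRer11). No source used here gives versions, the counting tool, the annotation or the strand setting. Genes are named by their Ensembl ID in the deposited counts and by the symbol that a separate list of gene names gives that ID.

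Genes were kept by filterByExpr (minimum count 10, minimum total 15), the 92 ERCC rows left out, leaving 9519. edgeR 4.0.16 in R 4.3.3 fitted 1 quasi-likelihood model with TMM scaling, a term per genotype and robust=TRUE to all 12 tubes. Adjusted p-values are Benjamini-Hochberg over all genes tested. limma 3.58.1 and DESeq2 1.42.0 were alternatives, with other scalings, filters and each tube left out. The common dispersion was 4.00. With 0 counts in a group, folds were computed against 3 counts over the group.

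Members, roles and lists were chosen with earlier results of these data known. Genes named are, by rule, the 3 smallest p per direction against siblings, the standard cutting subunits, the immunoproteasome genes, the highest and lowest member of each role by mean level, and genes at 0 in 1 genotype and at least 10 CPM in another. Other genes named with values were chosen after these were seen, among them PSMD14, PSMD4, PSMC1, PSMG2 and PSME1. Mean levels by role and shares of gene pairs are not corrected for gene length.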

Additional observations from a re-analysis of the deposited data

Results flagged for a closer look

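For PSMC6, every mafba tube lay above siblings and every DMut tube below. The difference itself, the log2 fold change of DMut over mafba, was -1.11 ± 0.68 (SE, edgeR adjusted p = 0.831) and did not pass the test. For PSMD4, every mafbb tube lay above siblings and every DMut tube below, and the log2 fold change of DMut over mafbb was -2.59 ± 1.93 (SE, edgeR adjusted p = 0.548), which did not pass either. Genotypes had 3 tubes each, so single tubes were not screened for distance from their group.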

How the results depend on the processing

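The count of proteasome genes called was 0 in all 7 tests and above 0 in 14 of 166 alternatives. DESeq2 gave 1 for DMut over siblings, 1 for DMut over mafba, and 2 each for mafba over siblings, mafbb over siblings, DMut over mafbb and the interaction. Over all genes DESeq2 called 503 to 1760 in these comparisons. Leaving out each tube in turn gave 0 to 1, with PSMD14 called without mafbb replicate 3, and leaving out mafba replicate 2 together with mafbb replicate 3 gave 1 in each of the same 4 tests. With the replicate block the count was 0 in all 7. The labels do not say that equal numbers share a preparation, and the deviations of equally numbered tubes correlated at -0.0262 to 0.0356 over 18 pairs. Of 18 log2 fold changes of named genes, 3 changed sign or went to 0 among 432 alternatives. PSME3IP1 in DMut over siblings ranged from 0 to 11.07 with each tube left out, at 0 without DMut replicate 3, PSMF1 in mafbb over siblings ranged from -8.11 to 1.95, at 1.95 without siblings replicate 2, and PSMA8 in mafbb over siblings was -0.10 on the spike-in scale. The summed share in DMut was 0.454% on TMM-scaled library sizes, against 0.421% of gene counts. With 3 tubes of 3 cells per genotype and a biological coefficient of variation of 2, small differences were not detectable and large ones could go uncalled. psmc1b in DMut over siblings, at a log2 fold change of 1.56, had an adjusted p of 0.897 by edgeR. PSMB10, with 0 counts in all mafbb tubes, was not called by edgeR in mafbb over siblings either. Its bound of 436-fold covers counting error only and rested mostly on siblings replicate 1. Without that tube the bound was 116-fold. The absence of a call therefore does not exclude a large difference.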
